A study of Mus musculus with 12 samples.

Results

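The small nucleolar RNA (snoRNA) and small nuclear RNA (snRNA) genes of tumorspheres were examined in 12 RNA-seq libraries of S1, a mouse gastric cancer cell line established from a tumour of ChetPS mice. The genes were taken by the biotype column of the deposited tables, snoRNA or snRNA, without Rn7sk. There were 385 of them among 18926 genes, 269 with the biotype snoRNA and 116 with the biotype snRNA. The 12 formed 4 groups of 3: a control, a Rasa1 knockout (Rasa1-KO), an Nf2 knockout (Nf2-KO) and a double-KO of both genes. All the cells carried a stable Cas9 cassette, the knockouts were made with lentiviral guide RNAs, and the study's methods name a non-targeting guide and an intact plasmid backbone as controls, without saying which was sequenced. S1 is 1 line, so no result below was seen in a second one. All were seeded as single cells on low-attachment plates in a medium with epidermal growth factor, although the cell type label of all 12 reads monolayer cell. Nothing in the labels says that libraries of a group came from separate cultures, and the study's legend to its principal component plot of these profiles calls the points technical replications. The n of a group therefore counts libraries, and p-values measure only the spread between them, not that between cultures.

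The labels of 2 groups went against the expression of a targeted gene. Nf2 mRNA was at 58.1, 61.0 and 55.4 CPM (read counts scaled to a common library size with edgeR's TMM factors) in control, at 14.3, 13.2 and 13.2 in Nf2-KO, at 11.6, 11.9 and 12.1 in the libraries labelled Rasa1-KO and at 62.6, 57.6 and 56.4 in those labelled double-KO. Nf2 was thus low in the libraries labelled Rasa1-KO and at the control level in those labelled double-KO. Rasa1 mRNA was at 60.5, 74.9 and 78.5 CPM in control, 34.5, 30.4 and 30.8 in labelled Rasa1-KO, 97.2, 101 and 97.2 in Nf2-KO and 17.7, 20.6 and 23.3 in those labelled double-KO. The libraries labelled Rasa1-KO were thus low in both targeted genes, and those labelled double-KO were low in Rasa1 only. The names of the deposited tables exchange the 2 groups. They are therefore called labelled Rasa1-KO and labelled double-KO throughout, and no direction below says which gene was removed in them. Of the epithelial markers Krt8, Krt18 and Krt19 summed with Epcam and Cldn4, control held 3143 to 6073 CPM, labelled Rasa1-KO 7048 to 7415, Nf2-KO 4807 to 5358 and labelled double-KO 5912 to 6842, while Cldn4 averaged 0.0775 to 0.485 CPM in the groups. The sum of 2 of 3 listed fibroblast markers, Pdgfra and Dcn, was 32.1 to 83.2 CPM in control, 59.8 to 66.7 in labelled Rasa1-KO, 115 to 121 in Nf2-KO and 13.7 to 15.4 in labelled double-KO. The sum hides that these 2 genes went opposite ways against control. In labelled Rasa1-KO 1 was called higher and 1 lower (log2 3.28 and -1.13), and likewise in Nf2-KO (log2 4.45 and -0.72). Of the leukocyte markers, Cd68 was at 5.52 to 8.16 CPM in control, 19.7 to 22.4 in labelled Rasa1-KO, 14.1 to 14.9 in Nf2-KO and 6.81 to 15.9 in labelled double-KO, and Ptprc at 0.110 to 0.572 over the 12 libraries. The endothelial markers Pecam1 and Kdr summed to between 0.552 and 1.53 CPM in every library. Of these too, 1 was called higher and 1 lower in labelled Rasa1-KO (log2 1.35 and -1.46) and in Nf2-KO (log2 1.28 and -1.62). The other listed markers, Lum, Cd3e and Cdh5, were not analysed here. The part of these markers in the results was not tested.

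SnoRNAs guide the chemical modification of other RNAs, mainly ribosomal RNA. Box C/D snoRNAs carry a C box and a D box that are bound by fibrillarin and its partners, and direct ribose methylation, whereas box H/ACA snoRNAs end in an ACA box, are bound by dyskerin and its partners, and direct pseudouridylation. Most mammalian snoRNAs lie in introns of host genes, often genes of ribosomal proteins or of translation, and are released when the spliced intron is trimmed. A few, such as U3, U8 and the SNORA73 RNAs, act in the cleavage or folding of the ribosomal precursor instead of guiding its modification. The snRNAs U1, U2, U4, U5 and U6 form the major spliceosome, U11 and U12 belong to the minor spliceosome, and U7 acts in histone mRNA 3′ end processing. SnRNAs come mostly from genes of their own, in many near-identical copies.

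The sequences of members on which the results turn are shown first (GENCODE transcripts, mouse build GRCm38), so that the length of each RNA and its boxes can be seen beside its values. Of the C/D members that differed between groups, Snord33 is shown, which lay within Rpl13a, where an exon of a transcript other than a protein-coding one also covered it (chr7:45126864-45126947, minus strand). Capitals mark the first TGATG, the C box, and the last CTGA, the D box.
Snord33: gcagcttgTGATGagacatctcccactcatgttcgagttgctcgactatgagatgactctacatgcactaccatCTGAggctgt

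Snora65 lay within Rpl12 (chr2:32963291-32963420, plus strand) and Snora73a, the member with the most counts, in an intron of Rcc1 (chr4:132352775-132352979, minus strand). Capitals mark the ACA that stands 3 bases before the 3′ end.
Snora65: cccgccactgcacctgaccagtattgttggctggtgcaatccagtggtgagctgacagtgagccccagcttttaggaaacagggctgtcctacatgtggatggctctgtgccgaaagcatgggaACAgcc
Snora73a: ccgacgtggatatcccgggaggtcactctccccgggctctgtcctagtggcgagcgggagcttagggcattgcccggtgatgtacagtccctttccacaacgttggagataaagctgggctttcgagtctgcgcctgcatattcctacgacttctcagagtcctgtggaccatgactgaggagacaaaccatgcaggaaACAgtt

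U3 is represented by Rnu3a on chromosome 10 (chr10:40258467-40258679, plus strand) and by the U3B copies inside Tex14 on chromosome 11, of which Rnu3b1 is shown (chr11:87443237-87443451, plus strand). Capitals mark TGATG and the last CTGA.
Rnu3a: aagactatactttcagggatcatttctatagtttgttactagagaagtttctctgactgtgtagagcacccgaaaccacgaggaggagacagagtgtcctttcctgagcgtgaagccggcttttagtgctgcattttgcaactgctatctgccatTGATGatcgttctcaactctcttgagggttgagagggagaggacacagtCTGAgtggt
Rnu3b1: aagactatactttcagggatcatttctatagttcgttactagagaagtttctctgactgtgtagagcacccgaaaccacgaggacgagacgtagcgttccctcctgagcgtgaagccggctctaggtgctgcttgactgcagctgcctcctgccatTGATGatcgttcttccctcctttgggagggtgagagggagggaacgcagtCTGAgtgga

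U12 is encoded by Rnu12 (chr15:83149644-83149794, plus strand) and U11 by Rnu11 (chr4:132270080-132270213, minus strand), both outside any gene on the same strand. Capitals mark TTTTTG, in the single-stranded stretch where the ring of Sm proteins sits.
Rnu12: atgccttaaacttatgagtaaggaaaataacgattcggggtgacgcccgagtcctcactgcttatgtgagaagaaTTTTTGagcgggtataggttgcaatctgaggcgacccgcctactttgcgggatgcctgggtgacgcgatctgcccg
Rnu11: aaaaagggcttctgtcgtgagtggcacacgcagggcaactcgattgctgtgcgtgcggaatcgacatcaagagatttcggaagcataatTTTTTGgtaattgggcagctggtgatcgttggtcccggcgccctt

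A GENCODE sequence was found for 377 of the 385 members. TGATG within the first 15 bases together with CTGA within the last 15 was found in 107 of 138 box C/D snoRNAs (77.5%) and in 4 of 239 other members (1.7%). ACA at exactly 3 bases from the 3′ end was found in 84 of 114 box H/ACA snoRNAs (73.7%) and in 6 of 263 other members (2.3%). TTTTTG was found on the RNA strand in 12 of 12 U2, 2 of 2 U4, 7 of 7 U5 and 2 of 3 minor spliceosomal snRNA genes, and in 37 of 377 members in all (9.8%). The annotated names and the boxes thus went together for most members. Many genes were exact copies: 53 members fell into 13 sets of identical sequence, the largest of 20 U6 genes and the next of 7 U1 genes with Rnu1a1 among them. Rnu3b1, Rnu3b2 and Rnu3b3 were identical over 215 bases, Rnu3b4 differed from them by 1 added base, and Rnu3a was 85.6% identical to Rnu3b1. Reads of identical copies cannot be assigned to 1 of them, so their counts are not independent and their split among copies is uncertain.

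By RefSeq names the 385 genes comprised 141 box C/D snoRNAs, 117 box H/ACA snoRNAs, 5 U3 genes, 12 snoRNAs with other names, and 27 U1, 12 U2, 2 U4, 7 U5, 58 U6, 1 U7 and 3 minor spliceosomal snRNA genes. By GENCODE, 182 lay in an intron of another gene on the same strand, 115 overlapped an exon of a transcript that was not protein-coding, 9 overlapped an exon of a protein-coding transcript, 71 had no host on the same strand and 8 had no match. Reads of the host's unspliced or retained-intron RNA that fall on a member can add to its count. Libraries held 43818139 to 96674463 counts in all, of which members took 0.0354% to 0.0737%. Members had few counts: the median of their mean counts was 20.1, against 821 for all genes. The low-count filter of edgeR left out 103 members, none with a mean above 8.75 counts, and 282 members were tested among 18053 genes. The authors had removed every gene with a count of 0 in any library, so members silent in 1 group were not analysed here.

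Levels were compared between genes per length. The highest were Snora73a at 492 and Snora73b at 210 CPM per kilobase over the 12 libraries, both RNAs that act in the cleavage of the ribosomal precursor. Both were placed inside Rcc1 by a host rule that takes protein-coding genes before non-coding ones. Snora74a followed at 81.3, LOC115489055 (SNORA12, in Cwf19l1) at 80.8, Rnu3a at 62.2 and Rnu3b1 at 56.8 CPM per kilobase. The most abundant box C/D snoRNAs were LOC115487677 (SNORD78, in Gas5) at 50.0, LOC115487638 (SNORD24, in Gas5) at 45.2, Snord22 (in Snhg1) at 38.1 and Snord17 (in Snx5) at 35.2 CPM per kilobase. U1, the most abundant snRNA of most cells, was low by comparison, with Rnu1a1 at 16.0 CPM per kilobase and 6 further U1 genes with the same sequence. By length, the 144 members under 100 bases took 15.3% of member counts, the 183 of 100 to 149 bases 19.7% and the 58 longer ones 65.1%. The box H/ACA snoRNAs took 53.7% of all member counts, the box C/D snoRNAs 18.4%, the 5 U3 genes 10.6%, the U2 genes 8.02%, the U1 genes 4.44% and the 58 U6 genes 1.15%.

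Few members were called in the groups with low Nf2. Those that rose lay mostly within ribosomal protein genes, where the share of tested members called higher was close to that of all genes. In labelled Rasa1-KO against control, 16 of the 282 tested members were higher and 5 lower at an adjusted p under 0.05, with 19.7% of all genes tested called higher and 22.2% called lower. In Nf2-KO against control, 21 members were higher and 9 lower, with 20.6% of all genes called higher and 22.2% called lower. As a share of the members tested, these were 5.67% higher and 1.77% lower in labelled Rasa1-KO, and 7.45% higher and 3.19% lower in Nf2-KO, all below the shares of all genes. The median log2 fold change of members was 0.12 in labelled Rasa1-KO (all genes, -0.08) and 0.21 in Nf2-KO (all genes, -0.07). The median standard error of a member's log2 fold change was 0.38 in both, against 0.21 over all genes, which sets a larger smallest detectable change for members. Both comparisons use the same 3 control libraries. With the numbers in the table names as a replicate block, the calls were 14 higher and 16 lower in labelled Rasa1-KO and 13 higher and 22 lower in Nf2-KO.

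Snora65, a box H/ACA snoRNA within Rpl12, was higher in every library with low Nf2 than in any other library. It had 2.26, 1.96 and 0.952 CPM in control, 5.46, 5.15 and 5.29 in labelled Rasa1-KO, 5.02, 5.16 and 5.83 in Nf2-KO and 1.79, 1.75 and 2.40 in labelled double-KO. Its rise was 3.04-fold in labelled Rasa1-KO (log2 1.61, SE 0.27, adjusted p 0.00063) and 3.06-fold in Nf2-KO (log2 1.62, SE 0.27, adjusted p 0.00052). In labelled double-KO its libraries overlapped those of control, with a log2 difference of 0.19 (adjusted p 0.74).

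Rpl13a holds Snord32a, Snord33, Snord34 and Snord35a, box C/D snoRNAs that have also been studied in the response to lipid stress, which were singled out after their values were seen. Snord33 had 70, 57 and 28 counts in control, 88, 112 and 83 in labelled Rasa1-KO, 117, 95 and 118 in Nf2-KO and 68, 60 and 69 in labelled double-KO. Scaled to library size it was at 0.744, 0.776 and 0.556 CPM in control and between 1.07 and 1.38 CPM in the libraries with low Nf2, which did not overlap with control. It rose by log2 0.76 in labelled Rasa1-KO (SE 0.23, adjusted p 0.022) and 0.88 in Nf2-KO (SE 0.23, adjusted p 0.010). Snord34 rose by log2 0.66 (adjusted p 0.022) and 0.73 (adjusted p 0.013), and Snord32a by 0.88 in labelled Rasa1-KO (adjusted p 0.027), with 0.71 in Nf2-KO (adjusted p 0.063). Rpl13a itself rose by log2 1.21 in labelled Rasa1-KO and 1.01 in Nf2-KO. Thus 3 of the 4 snoRNAs of this gene, picked after the values were seen, rose in labelled Rasa1-KO and 2 of 4 in Nf2-KO. Of all genes, 19.7% and 20.6% were called higher in these comparisons. Over the 57 tested members within ribosomal protein genes the shares were 17.5% and 22.8%, so the counts in Rpl13a do not stand for such genes as a whole. Of 21 other settings, 18 kept the call of Snord33 in labelled Rasa1-KO and 20 in Nf2-KO, 16 and 19 kept those of Snord34, and 16 kept that of Snord32a. In labelled Rasa1-KO the call of Snord33 was lost without control replicate 2 or labelled Rasa1-KO replicate 1, that of Snord34 without any 1 library labelled Rasa1-KO, and that of Snord32a without any 1 of these or control replicate 1.

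Some members passed the test in Nf2-KO with lower values in labelled Rasa1-KO. In the direct test, 0 of the 282 members were called lower in labelled Rasa1-KO than in Nf2-KO. LOC115490276, a SNORA27 gene within Rpl21, had 0.308, 0.340 and 0.0992 CPM in control, 0.753, 0.511 and 0.372 in labelled Rasa1-KO, 0.882, 0.844 and 1.02 in Nf2-KO and 0.197, 0.442 and 0.176 in labelled double-KO. It rose by log2 1.84 in Nf2-KO (SE 0.48, adjusted p 0.0090), with 1.09 in labelled Rasa1-KO (adjusted p 0.086), and the 2 groups did not differ in their own test (log2 -0.75, SE 0.45, adjusted p 0.51). LOC115487308, a SNORD105 gene within Ppan, a ribosome assembly factor, rose by log2 1.78 in Nf2-KO (SE 0.56, adjusted p 0.023) on 5 to 78 counts a library, a call lost without control replicate 2 or Nf2-KO replicate 3 and with either replicate block. LOC115489083, a SNORD27 gene within Snhg1, rose by log2 1.05 in Nf2-KO (SE 0.33, adjusted p 0.024), a call lost without control replicate 2 or any 1 Nf2-KO library and with either block. Over the 21 other settings, LOC115487308 was at log2 0.44 to 1.35 in labelled Rasa1-KO against control and LOC115489083 at 0.43 to 0.92. Their differences between labelled Rasa1-KO and Nf2-KO were called in 0 and 1 of these settings. LOC115487881, a SNORA5 gene in an intron of Tbrg4, rose in labelled Rasa1-KO (log2 1.33, SE 0.45, adjusted p 0.035) on 8 to 39 counts, whereas Tbrg4 was at log2 -0.16 (adjusted p 0.37). Only 14 of 21 other settings kept this call, which was lost without the library of either group whose title has no number, control replicate 2 or labelled Rasa1-KO replicate 2, with either block and with only the 2 groups in the fit. Among members under the count minimum for named genes, LOC115488214 (SNORA2/SNORA34 family, in an intron of Cks2) was singled out after its values were seen. It had 4 to 9 counts in control, 18 to 28 in labelled Rasa1-KO and 27 to 34 in Nf2-KO. Its log2 differences from control were 1.71 (adjusted p 0.0059) and 2.08 (adjusted p 0.0015). The counts of the groups where it was high could by themselves carry it past the low-count filter. For a member picked by its values, these adjusted p values are a description and no independent test. Cks2, the host of LOC115488214, rose by log2 1.72 and 1.71 (adjusted p 4.6e-05 and 3.6e-05).

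**Figure D1:**
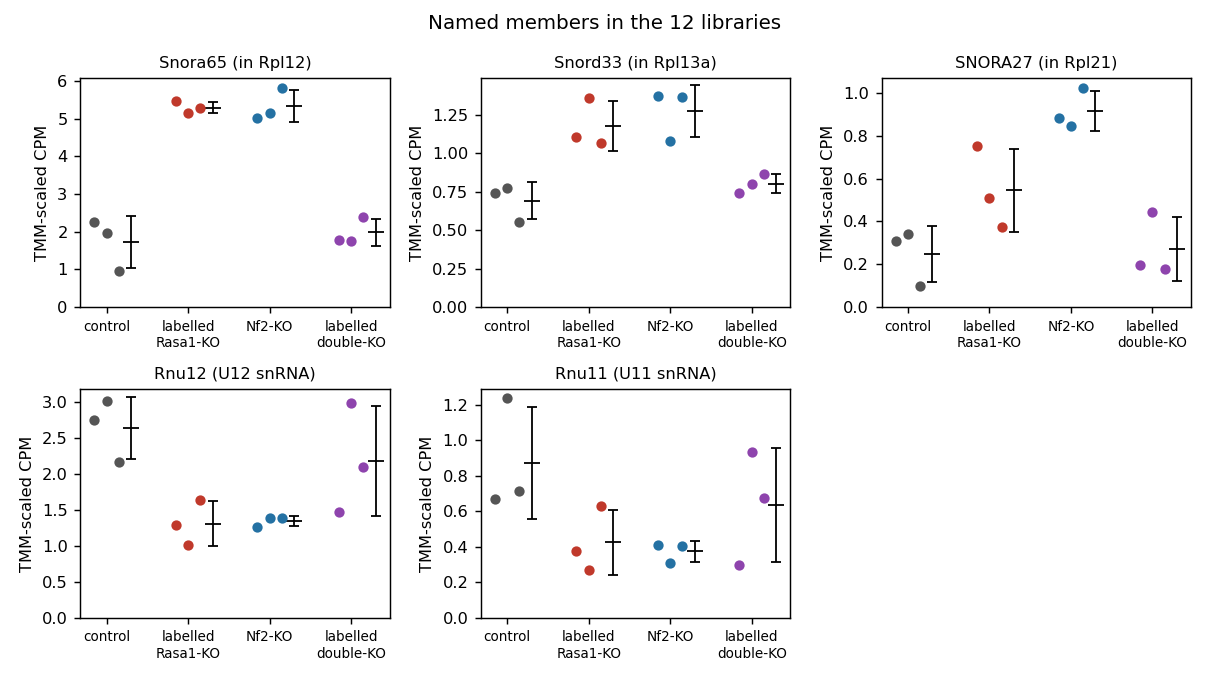
Level of 5 members in each library, in TMM-scaled CPM on linear axes that start at 0. Points are libraries, and the horizontal tick with its bar is the mean with the SD of 3 libraries. Snora65 lies between 5.02 and 5.83 CPM in both groups with low Nf2 and between 0.952 and 2.40 in the other 2 groups.

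Grouped by host, most of the members that rose lay within ribosomal protein genes. Of 57 tested members in 31 such genes, 10 rose in labelled Rasa1-KO and 13 in Nf2-KO and none fell in the edgeR test, with medians of log2 0.50 and 0.67. These are 17.5% and 22.8% of the 57, close to the 19.7% and 20.6% of all genes called higher. All 31 hosts rose in both comparisons, by log2 0.68 to 1.41 in labelled Rasa1-KO (median 1.08) and 0.55 to 1.31 in Nf2-KO (median 0.83). Of 103 tested members within other protein-coding genes, 2 rose and 2 fell in labelled Rasa1-KO (median -0.13) and 4 rose and 2 fell in Nf2-KO (median 0.09). Of 39 tested members within non-coding hosts, none passed the test in labelled Rasa1-KO and 3 rose in Nf2-KO, with medians of 0.24 and 0.49. Their 15 tested hosts had medians of log2 1.5 and 1.03, and 10 of the 15 rose in each comparison.

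In Snhg1 and Gas5, the non-coding hosts with the most members, the host's log2 fold change was above that of its snoRNAs, a difference that was not tested. Snhg1, a spliced RNA with 8 tested box C/D snoRNAs in its introns, rose by log2 1.52 in labelled Rasa1-KO (SE 0.23, adjusted p 0.00033) and 1.43 in Nf2-KO (SE 0.23, adjusted p 0.00040). Its 8 snoRNAs had a median of log2 0.39 in labelled Rasa1-KO, with a range of 0.23 to 0.66 and none called, and of 0.66 in Nf2-KO, with a range of 0.49 to 1.05 and 3 called, Snord22 among them (log2 0.66, SE 0.22, adjusted p 0.029, kept in 16 of 21 other settings). Gas5 rose by log2 1.5 (SE 0.32, adjusted p 0.0035) and 1.03 (SE 0.32, adjusted p 0.023), while its 6 tested snoRNAs had medians of -0.10 and 0.35 with none called. For LOC115487677, the SNORD78 gene of Gas5, the log2 ratio of its counts to those of Gas5 averaged -4.98 (SD 0.50) in control, -6.70 (SD 0.16) in labelled Rasa1-KO, -5.88 (SD 0.15) in Nf2-KO and -5.71 (SD 0.20) in labelled double-KO. The ratio was thus lowest in labelled Rasa1-KO, where no library overlapped with any other group, and the libraries of all 3 knockout groups lay below those of control. Rab26os had the other sign, at log2 -0.62 and -0.41, with its LOC115488833 at 0.62 and 0.90, but neither gene was called in either comparison.

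Over all 222 pairs of a tested member and its tested host, in 133 hosts, Pearson's r of their log2 fold changes was 0.42 in labelled Rasa1-KO against control, 0.62 in Nf2-KO and 0.23 in labelled double-KO. These are descriptions across genes that share libraries, controls and, within a host, the host itself. Of the 23 members with a tested host that were called in Nf2-KO, all 23 had a host called in the same direction, and of the 19 called in labelled Rasa1-KO, 13 did, with the other 6 hosts not called. Hosts were called in most of the 222 pairs in both comparisons. For 130 pairs in Nf2-KO and 140 in labelled Rasa1-KO the host was called and the member was not. The 13 of 19 are thus near the share of called hosts over all pairs, and the 23 of 23 lie above it. That share counts hosts called in either direction, whereas the 13 and the 23 count only hosts called in the member's direction. The 19 include 10 members within ribosomal protein genes, whose hosts all rose. They also include snRNA or U3 genes that lie inside another gene, 3 that rose and 2 that fell. In Nf2-KO, 2 genes of this kind fell and none rose, so the 2 comparisons rest on unlike sets of members. The median of member minus host was log2 -0.28 in Nf2-KO and -0.56 in labelled Rasa1-KO. How much of a member's count came from unspliced host RNA was not tested, as the tables hold no read positions.

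**Figure D2:**
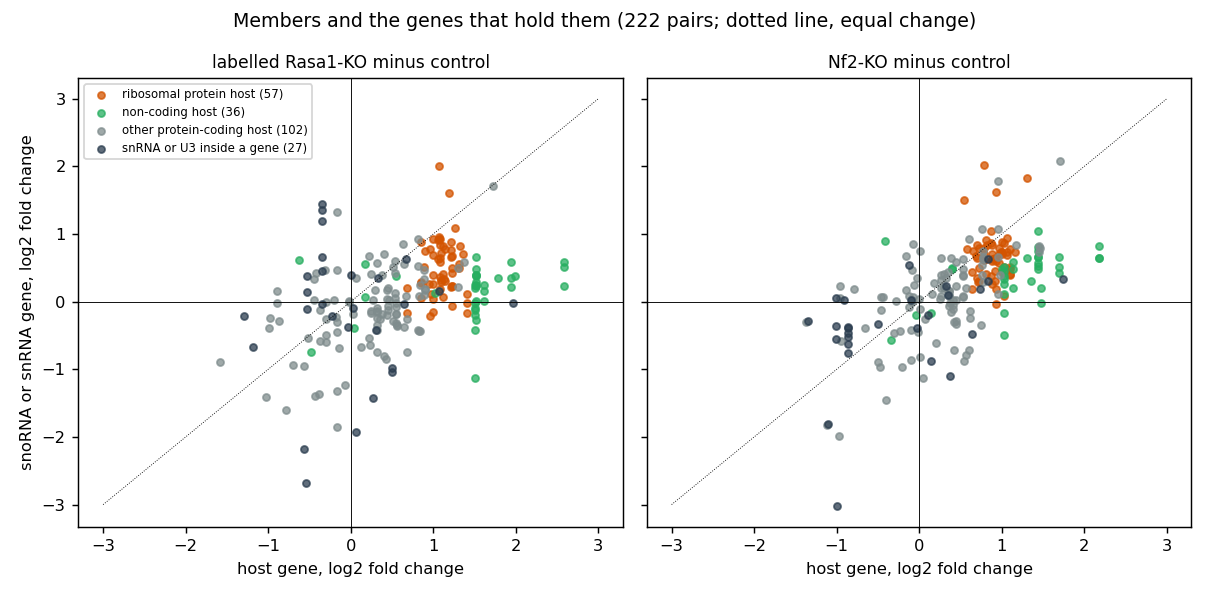
Log2 fold change against control of each tested member (vertical axis) and of the gene that holds it (horizontal axis), for 222 pairs coloured by kind of host, in labelled Rasa1-KO and in Nf2-KO. Ribosomal protein hosts, in orange, lie to the right of 0 in both panels, and members of non-coding hosts, in green, lie mostly below the dotted line of equal change.

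The U3 genes had another pattern, with high values in labelled Rasa1-KO and low ones in Nf2-KO. U3 is a box C/D snoRNA that base-pairs with the ribosomal precursor and is needed for its first cleavages toward the small subunit. Rnu3b1 had 8.12, 8.05 and 6.89 CPM in control, 16.4, 20.2 and 26.1 in labelled Rasa1-KO, 6.08, 4.30 and 7.26 in Nf2-KO and 13.1, 22.2 and 7.62 in labelled double-KO. Rnu3a, which differs in sequence and lies on another chromosome, had 10.2, 9.46 and 10.2 CPM in control, 20.5, 23.4 and 23.9 in labelled Rasa1-KO, 6.23, 4.09 and 8.22 in Nf2-KO and 12.8, 21.7 and 7.57 in labelled double-KO. Libraries labelled Rasa1-KO lay above all control and Nf2-KO libraries for both, and those labelled double-KO were spread over the whole range. Rnu3b1 rose by log2 1.44 (SE 0.33, adjusted p 0.0050), Rnu3b2 by 1.35 (SE 0.40, adjusted p 0.018), Rnu3b4 by 1.20 (SE 0.37, adjusted p 0.023) and Rnu3a by 1.19 (SE 0.33, adjusted p 0.013) in labelled Rasa1-KO against control. Rnu3b3 was at log2 0.67 (SE 0.29, adjusted p 0.089). The calls of Rnu3b2 and Rnu3b4 were lost without control replicate 1 or labelled Rasa1-KO replicate 2, and that of Rnu3b4 also without control replicate 2. In Nf2-KO against control the 5 were between log2 -0.68 and -0.38, with none called.

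Labelled Rasa1-KO against Nf2-KO called 5 members higher, all of them U3 genes, and none lower, with 1.92% of all genes called higher and 1.74% called lower. Of the members, 12 had an unadjusted p under 0.05, and DESeq2 called 5 higher and none lower. Rnu3a was 3.66-fold higher (log2 1.87, SE 0.33, adjusted p 0.0099), Rnu3b1 3.56-fold (log2 1.83, SE 0.34, adjusted p 0.012), Rnu3b2 3.32-fold (log2 1.73, SE 0.40, adjusted p 0.036), Rnu3b4 3.16-fold (log2 1.66, SE 0.38, adjusted p 0.034) and Rnu3b3 2.46-fold (log2 1.30, SE 0.30, adjusted p 0.034). As 3 of the copies are identical, these are not 5 independent results. With the title numbers as a replicate block, 0 were called (adjusted p 0.10 for Rnu3a and 0.20 for Rnu3b3). With 1 library left out in turn, the number called was 0 to 5, with 0 without Nf2-KO replicate 1 or replicate 2, 1 without labelled Rasa1-KO replicate 2, and 2 without control replicate 1, Nf2-KO replicate 3 or either other library labelled Rasa1-KO. Summed over the 5 genes, U3 was at 37.2, 36.8 and 35.2 CPM in control, 70.2, 78.9 and 100 in labelled Rasa1-KO, 27.1, 17.4 and 31.6 in Nf2-KO and 55.6, 94.0 and 31.1 in labelled double-KO.

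Other short structural RNAs took more of the counts in labelled Rasa1-KO than in Nf2-KO. Those listed here, the 7SL, 7SK, RNase P, RNase MRP and like RNAs, took 7.95% to 12.7% of counts in control, 12.7% to 14.4% in labelled Rasa1-KO, 9.18% to 11.7% in Nf2-KO and 9.94% to 15.5% in labelled double-KO. Rn7s1, a 7SL RNA gene, was at log2 0.57 in labelled Rasa1-KO (adjusted p 0.096), -0.10 in Nf2-KO (adjusted p 0.76) and 0.54 in labelled double-KO (adjusted p 0.26) against control. The medians of the 8 tested were log2 0.46, 0.01 and 0.32 in these comparisons, against 1.20, -0.46 and 0.85 for the U3 genes. Their part in the U3 result was not tested. Leaving all members and these RNAs out of the library sizes left 5 members called higher in labelled Rasa1-KO than in Nf2-KO.

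**Figure D3:**
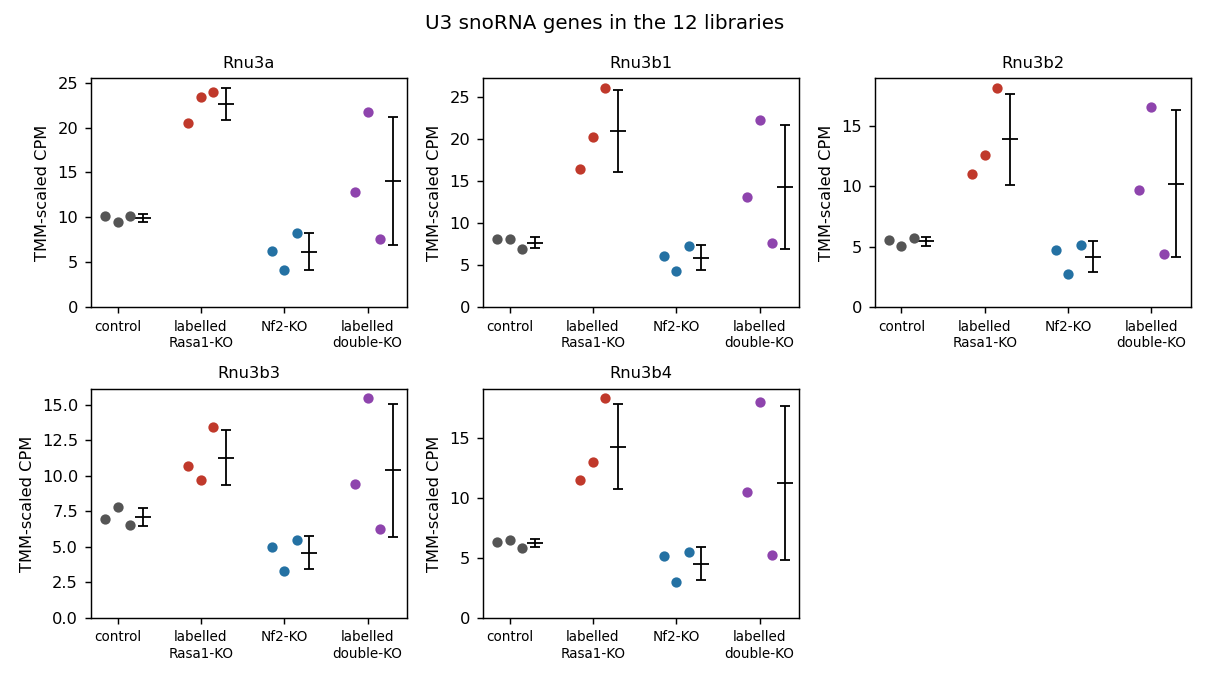
Level of the 5 U3 genes in each library, in TMM-scaled CPM on linear axes from 0, with points for libraries and a tick and bar for mean and SD of 3. For Rnu3a, the libraries labelled Rasa1-KO lie between 20.5 and 23.9 CPM, those of control between 9.46 and 10.2 and those of Nf2-KO between 4.09 and 8.22.

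The U12 snRNA was lower in both groups with low Nf2. Rnu12, the U12 gene of the minor spliceosome, had 258, 221 and 109 counts in control, 102, 83 and 127 in labelled Rasa1-KO, 107, 121 and 119 in Nf2-KO and 134, 223 and 167 in labelled double-KO. In CPM it was at 2.74, 3.01 and 2.16 in control, 1.28, 1.01 and 1.63 in labelled Rasa1-KO, 1.26, 1.38 and 1.38 in Nf2-KO and 1.47, 2.98 and 2.1 in labelled double-KO. All 6 libraries with low Nf2 lay below all 3 of control. It fell by 1.01 on the log2 scale in labelled Rasa1-KO (SE 0.28, adjusted p 0.013) and by 0.98 in Nf2-KO (SE 0.28, adjusted p 0.014), with -0.28 in labelled double-KO (adjusted p 0.61). The call was lost without labelled Rasa1-KO replicate 1 in the first comparison, and without control replicate 1 or Nf2-KO replicate 1 in the second. Rnu11, the U11 gene, fell by 1.22 in Nf2-KO (SE 0.46, adjusted p 0.049), a call that 11 of 21 other settings kept, and was at -1.04 in labelled Rasa1-KO (adjusted p 0.086).

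Among the major spliceosomal genes, Rnu2-10, which shares its sequence with LOC115487916, LOC115487917 and LOC115487918, had 4.16, 4.78 and 5.77 CPM in control, 4.03, 3.59 and 4.30 in labelled Rasa1-KO, 2.74, 2.29 and 3.17 in Nf2-KO and 4.05, 9.31 and 4.99 in labelled double-KO. In Nf2-KO it fell by 0.84 (log2, SE 0.28, adjusted p 0.030), with -0.30 in labelled Rasa1-KO (adjusted p 0.40). The call was lost without control replicate 1 or 2 or without Nf2-KO replicate 1 or 2. In all, 3 of 12 U2 genes fell in Nf2-KO (25% of them, against 22.2% of all genes called lower, median -0.41) and none in labelled Rasa1-KO (median 0.00). LOC115487699, a U5 gene, fell by 1.24 in Nf2-KO (SE 0.35, adjusted p 0.014), and the 7 U5 genes had medians of -0.81 in Nf2-KO and -0.47 in labelled Rasa1-KO. Rnu5g was at -0.47 in both, with adjusted p of 0.25 in Nf2-KO and 0.26 in labelled Rasa1-KO. Of 23 tested U1 genes 1 fell in each of these comparisons, LOC115488083, on 1 to 15 counts a library. Rnu1a1 was at log2 -0.03 in labelled Rasa1-KO (adjusted p 0.96) and -0.53 in Nf2-KO (adjusted p 0.37). Of 58 U6 genes 19 could be tested, and 1, LOC115490251, fell in labelled Rasa1-KO on 2 to 13 counts. Rnu6 itself had 2 to 10 counts a library and was not tested, and the 2 U4 genes and Rnu7 (7 to 19 counts a library) were not called.

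U8 and U13, made from their own genes, act in the processing of the large-subunit RNAs and in the acetylation of the small-subunit RNA. Snord118, the U8 gene, had 1.63, 2.53 and 2.16 CPM in control, 3.93, 3.08 and 3.16 in labelled Rasa1-KO, 2.48, 2.49 and 3.63 in Nf2-KO and 1.55, 3.39 and 2.57 in labelled double-KO. Its differences from control, log2 0.69, 0.45 and 0.25, were not called (adjusted p 0.077, 0.23 and 0.68). Snord13, the U13 gene, had 14 to 51 counts in control and 24 to 84 elsewhere and was not called. Snora73a, the member with the most counts, was not called against control either. It had 116, 70.9 and 85.8 CPM in control, 124, 109 and 128 in labelled Rasa1-KO, 79.5, 52.2 and 89.6 in Nf2-KO and 137, 149 and 71.4 in labelled double-KO, with log2 differences of 0.40, -0.30 and 0.39 (adjusted p 0.26, 0.40 and 0.46). LOC115487256, of the SNORA73 family in Rpsa, and LOC115487892 (SNORA48, in Eif4a1) were between log2 -0.04 and 0.54 against control in the 3 groups, with none called.

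**Figure D4:**
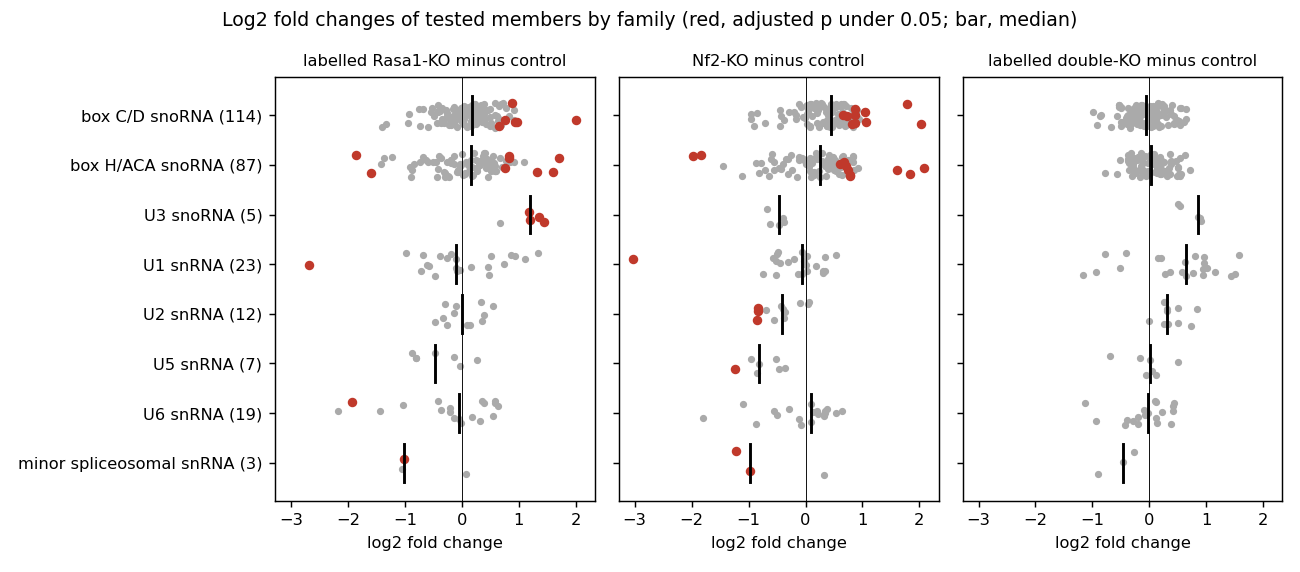
Log2 fold changes against control of the tested members, 1 point a gene, by family, with the number tested in parentheses. Red points have an adjusted p under 0.05 and black bars are medians. No point is red in labelled double-KO, and the U3 median is at 1.20 in labelled Rasa1-KO and at -0.46 in Nf2-KO.

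In labelled double-KO against control no member was called in either direction by edgeR, with 4.0% of all genes called higher and 2.46% called lower. Of the 282 members, 9 had an unadjusted p under 0.05, the lowest adjusted p was 0.14, DESeq2 called none, and limma on log2(FPKM + 0.1) called 2. The median log2 fold change of members was 0.03, and -0.04 over all genes. Leaving out the control library without a number gave 6 calls, 5 of them lower. Libraries of these 2 groups whose tables bear the same number deviated together, and with those numbers as a block the count was again 0.

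Labelled double-KO replicate 2 stood apart, in proportion most of all in U1, U2 and U4. Its members took 0.0737% of counts, against 0.0354% to 0.0546% in the other 11 libraries. Its summed U1 genes were at 58.7 CPM, against 10.6 to 24.8 in the other libraries, and its U2 genes at 77.6, against 23.6 to 43.5. Its U4 genes summed to 3.91 CPM, against 0.685 to 2.30. Its box H/ACA snoRNAs, the family with the most counts, were also highest, at 391 CPM against 173 to 312 in the other libraries. Its box C/D snoRNAs, at 101 CPM, lay within the range of the other libraries, 60.5 to 108, and so did its U3 genes, at 94.0 against 17.4 to 100. The members' share of counts was 0.0467% (SD 0.00173, n = 3) in control, 0.0507% (SD 0.00340) in labelled Rasa1-KO, 0.0408% (SD 0.00486) in Nf2-KO and 0.0538% (SD 0.0175) in labelled double-KO. No difference from control passed an exact two-sided permutation test (p = 0.2, 0.1 and 0.8, adjusted over the 3 tests 0.3, 0.3 and 0.8), where 3 libraries against 3 cannot give less than 0.1. The exact 95% binomial interval ran from 0.0350% to 0.0358% for the lowest share, in Nf2-KO replicate 2, and from 0.0731% to 0.0743% for the highest, and covers counting error only.

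**Figure D5:**
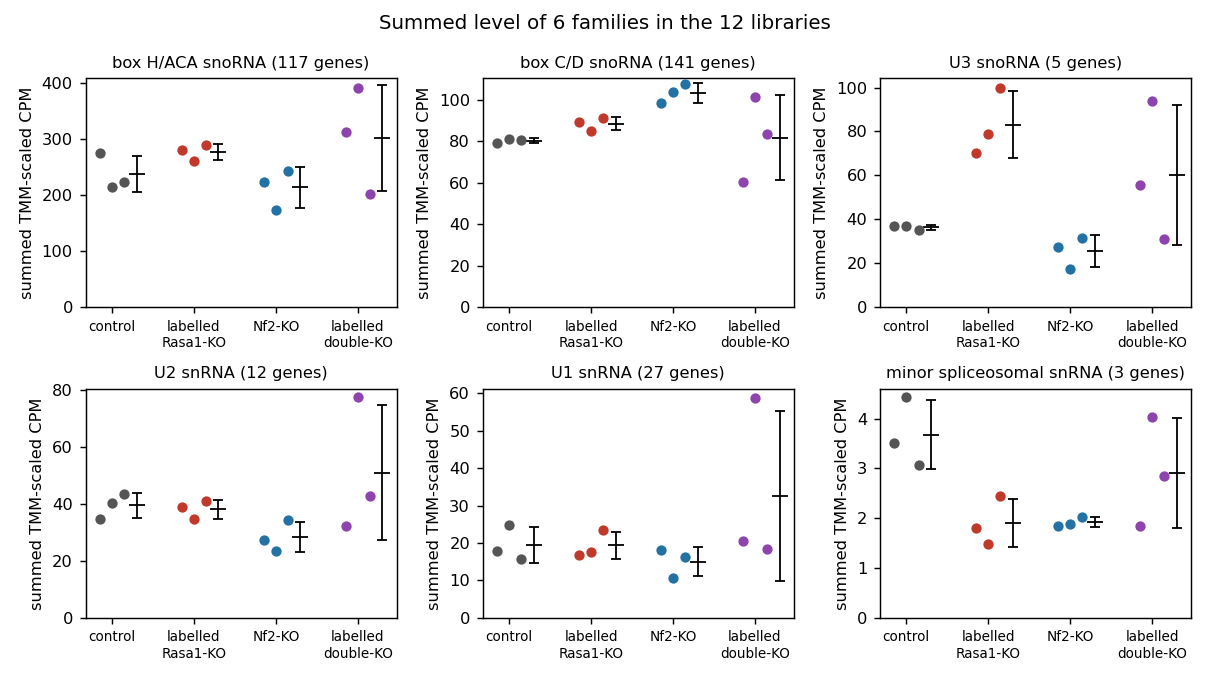
Summed level of 6 families in each library, in TMM-scaled CPM on linear axes from 0, with points for libraries and a tick and bar for mean and SD of 3. Labelled double-KO replicate 2 has the highest U1, U2 and box H/ACA sums, 58.7, 77.6 and 391 CPM.

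Between the knockout groups, labelled double-KO against Nf2-KO called 18 members higher and 23 lower, with 16.9% of all genes called higher and 15.3% called lower. The 18 comprised 5 U3, 5 U2 and 4 U1 genes, 3 box H/ACA snoRNAs, Snora73b among them, and 1 box C/D snoRNA, Snord17. Snora73b had 76.1, 94.5 and 26.2 CPM in labelled double-KO and 30.9, 17.2 and 29.5 in Nf2-KO (log2 1.34, SE 0.36, adjusted p 0.015), and Snord17 had 11.5, 18.6 and 6.91 against 5.59, 3.03 and 5.76 (log2 1.36, SE 0.36, adjusted p 0.014). Without labelled double-KO replicate 2, the number higher was 3 and the number lower 18, and without Nf2-KO replicate 2 they were 2 and 8. Of the 23 lower, 14 lay within ribosomal protein genes, which is 24.6% of the 57 tested members there, against 15.3% of all genes called lower. Labelled double-KO against labelled Rasa1-KO called 4 members higher and 10 lower, with 16.3% of all genes called higher and 14.0% called lower. Of the 10, 9 lay within ribosomal protein genes, which is 15.8% of the 57 tested members there and close to the 14.0% of all genes. Without replicate 2 of labelled double-KO, 0 were higher and 9 lower. With the numbers in the table names as a block the split turned, to 18 higher and 6 lower against labelled Rasa1-KO and to 32 higher and 16 lower against Nf2-KO. These comparisons share libraries with each other and with those against control.

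Within groups, members varied more than other genes of the same libraries. The median coefficient of variation of a member's CPM was 28.4% in control, 17.0% for labelled Rasa1-KO, 17.4% for Nf2-KO and 39.8% for labelled double-KO, against 27.4%, 7.82%, 8.75% and 13.0% over all genes tested. Members have fewer counts. The median chi-square of 3 libraries was 5.73, 2.40, 2.65 and 10.1 for members and 67.9, 7.91, 10.1 and 20.9 for all genes, where counting alone gives 1.39. It was taken on total counts without TMM factors and grows with the count, so the lower values do not show that members varied less. By this measure the excess over counting error was largest in labelled double-KO and control.

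The proteins of these particles were followed in lists of other genes, for which 19.7% of all genes were called higher and 22.2% lower in labelled Rasa1-KO and 20.6% and 22.2% in Nf2-KO. Of the 4 box C/D core proteins, Nop56 and Snu13 rose in labelled Rasa1-KO (log2 0.54 and 0.55) and Nop56, Nop58 and Fbl, which encodes fibrillarin, the methyltransferase, in Nf2-KO (log2 0.78, 0.45 and 0.39). Of the 4 H/ACA core proteins, Nhp2 rose in labelled Rasa1-KO (log2 0.40) and Dkc1, encoding dyskerin, the pseudouridine synthase, in Nf2-KO (log2 0.39). Of 12 assembly factors, 4 rose in labelled Rasa1-KO and 5 in Nf2-KO, Ruvbl2 (log2 1.08 and 1.24) and Nufip1 (log2 0.93 and 0.88) in both. Of 12 Sm and snRNP proteins, 6 and 5 rose, and of 8 Lsm proteins and La, 3 and 4 rose. The lists of snRNA synthesis went both ways: of 24 transcription and Integrator genes, 3 rose and 6 fell in labelled Rasa1-KO and 5 rose and 6 fell in Nf2-KO, with Ints4 lower (log2 -1.03 and -0.99) and Ints12 higher (log2 0.88 and 0.86). Of 9 SMN complex genes, 2 rose and 1 fell in each, and of 4 export and cap genes, 2 fell in labelled Rasa1-KO and 1 in Nf2-KO, Ncbp2 in both (log2 -0.88 and -0.68). In labelled double-KO against control 1 of these genes was called, Ints12 (log2 0.58), where 4.0% of all genes were called higher and 2.46% lower. Of 17 tested guide RNA genes, the small Cajal body RNAs that direct the modification of snRNAs, 2 rose and 1 fell in labelled Rasa1-KO and none was called in the other comparisons with control. Of 16 tested non-coding snoRNA hosts in a list of 17, 8 rose and 1 fell in labelled Rasa1-KO, 10 rose in Nf2-KO and 1, Snhg18, fell in labelled double-KO (log2 -1.84, adjusted p 0.024), and Snhg18 was the highest in the other 2 (log2 3.16 and 3.38). Of 8 tested short structural RNAs outside the members, Terc, the telomerase RNA, rose in labelled Rasa1-KO (log2 1.72, adjusted p 0.0014) and Nf2-KO (log2 1.12, adjusted p 0.015), and no other was called against control.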

How the data were processed

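RNA of 12 libraries, 3 per group, was sequenced by the authors after rRNA removal (TruSeq Stranded Total RNA Gold, 100-base paired reads). Per the labels and methods, reads were trimmed with Trimmomatic 0.38, aligned to mm10 with HISAT2 2.1.0, handled with SAMtools 1.9 and assembled with StringTie 2.1.3b on RefSeq genes. The authors deposited raw read counts, FPKM, TPM and a further normalized value of other kind that no source explains. How StringTie's output became counts, and how reads of identical copies were placed, is not given in the sources used here. A poly(A)-independent library of fragmented RNA recovers RNAs shorter than the fragments poorly, so levels of short members are not absolute.

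Counts were tested with edgeR 4.0.16 in R 4.3.3 (filterByExpr, TMM, quasi-likelihood, 1 fit over the 4 groups, Benjamini-Hochberg over 18053 genes, adjusted p under 0.05). DESeq2 1.42.0 and limma 3.58.1 on log2(FPKM + 0.1) served as alternatives, and scripts were tested on simulated data. Levels are TMM-scaled CPM. Members were matched to GENCODE release 21 genes by a reciprocal overlap of at least 50%, and the host is a gene on the same strand that spans the member. Where several did, genes with counts were taken first, then protein-coding genes, then the shortest. A non-coding gene that also spans a member can therefore go unnamed. The members named are, per comparison with control, the 5 largest rises and 5 largest falls among called members with a mean of at least 20 counts, the 3 highest per class, and the separately transcribed genes. Some members that this rule names are not reported here, although they enter the counts and medians. Members and lists were chosen with earlier results of these data known. The TPM and unexplained values were not used. Numbers in the titles did not pair libraries: correlations of same-numbered deviations ran from -0.379 to 0.399. Numbers in the names of the tables did so for control and labelled double-KO, with correlations of 0.626, 0.313 and 0.444.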

Additional observations from a re-analysis of the deposited data

How the results depend on the processing

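Counts of members called are given as total (higher and lower). In labelled Rasa1-KO against control the 21 calls became 11 (10 and 1) with only the 2 groups in the fit, 37 (20 and 17) with limma on FPKM, and 8 (3 and 5) under the study's rule of a fold of at least 3 with unadjusted p under 0.05. In Nf2-KO against control the 30 became 15 (7 and 8), 52 (38 and 14) and 9 (5 and 4) under these, and 14 (8 and 6) with the title number as a replicate block. In labelled double-KO against control, 0 became 2 with limma. In labelled double-KO against labelled Rasa1-KO, 14 became 22 (7 and 15) with DESeq2, 26 (6 and 20) with limma, 4 (0 and 4) with the replicate block, 24 (18 and 6) with the block by table names, and 1 under the fold rule. In labelled double-KO against Nf2-KO, 41 became 78 (17 and 61) with limma, 26 (9 and 17) with the block and 6 (4 and 2) under the fold rule. In labelled Rasa1-KO against Nf2-KO, 5 became 23 (15 and 8) with only these groups and 0 with the block. The block by table names turned the split to 14 higher and 16 lower in labelled Rasa1-KO and to 13 and 22 in Nf2-KO against control. The cause was not tested.

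With 1 library left out in turn, the calls ranged from 11 to 45 in labelled Rasa1-KO, 15 to 56 in Nf2-KO and 0 to 6 in labelled double-KO against control, from 4 to 24 and 10 to 68 in labelled double-KO against labelled Rasa1-KO and Nf2-KO, and from 0 to 5 in labelled Rasa1-KO against Nf2-KO. The counts of 45, 56, 6, 24 and 68 were reached when the unnumbered control library was left out. The lowest were those without labelled Rasa1-KO replicate 2 (11), Nf2-KO replicate 2 (15 and 10) and each library labelled Rasa1-KO (4). Leaving out both libraries whose table names have no number, an alternative chosen after seeing the data, gave 57, 70, 5, 42, 63 and 11 calls in the same order of comparisons. The share of counts differed from control by 0.00211 to 0.00532 percentage points in labelled Rasa1-KO, -0.00794 to -0.00322 in Nf2-KO and -0.00280 to 0.0137 in labelled double-KO, where it reversed to -0.00280 without replicate 2. Nf2 stayed between log2 -2.34 and -2.25 in labelled Rasa1-KO, -2.14 and -2.06 in Nf2-KO and -0.03 and 0.07 in labelled double-KO, and Rasa1 between -1.26 and -1.10, 0.36 and 0.53, and -1.90 and -1.70.

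Over named genes and comparisons, 4484 of 4891 alternative values kept direction and side of the threshold, 103 had the other sign without a call in either fit, 124 newly passed it, 180 no longer passed and no called value reversed. Snora65 was called against control in labelled Rasa1-KO and Nf2-KO under all 21 alternatives. RLE size factors and library sizes without members changed no count by over 1.5 times. Depth limits the 191 members with a mean under 20 counts, and the 103 untested members were not assessed.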
